A study of Caenorhabditis elegans with 12 samples.

Results

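The interaction of genotype with age was tested in whole *C. elegans*. It asks which changes of the adult transcriptome from D1, the first day of adulthood, to D7, the seventh day, differed between wild-type animals and animals labelled sams1. The interaction of a gene is the sams1 to wild-type difference at D7 minus that difference at D1, on the log2 scale. It equals the change with age in the libraries labelled sams1 minus the change in wild-type. A positive interaction is called higher here and a negative one lower. The test needs every group, so all 12 libraries of the 12 in the series were members, 3 each of wild-type D1, wild-type D7, sams1 D1 and sams1 D7. The replicates carry the numbers R1, R3 and R5. All animals were fed HT115 bacteria, and RNA was taken from whole animals. The titles name the second genotype sams1, and the study's text calls it *sams-1*(lof), the deletion strain HA1947 with the ok3033 allele. The labels instead give wild type as the genotype of every library, with RNAi as the treatment of the libraries titled sams1 and Control for the others. The labels' lysis note speaks of young adults for all libraries, those at D7 included. The study calls the triplicates independent biological samples, and no number of animals per sample was found.

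The enzyme SAMS-1 makes S-adenosylmethionine (SAM), the methyl donor of the cell, from methionine. Much of the SAM made by SAMS-1 is spent on the methylation of phosphoethanolamine, a step on the way to the membrane lipid phosphatidylcholine. Animals with less *sams-1* live long, are small, have few embryos and raise lipogenic genes such as *fat-7*. In adult *C. elegans* the first week brings the use of stored sperm, the end of egg production and a fall of many cuticle and muscle transcripts. A test of the interaction looks for genes whose course over that week depends on the genotype.

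The *sams-1* mRNA itself was counted first, as CPM (counts scaled to the size of the library by TMM). In wild-type it had 163, 102 and 181 CPM at D1 and 13.2, 20.02 and 17.6 CPM at D7. The libraries labelled sams1 had 228, 231 and 246 CPM at D1 and 35.7, 72.4 and 51.4 CPM at D7. It was thus not lower in the libraries labelled sams1 at either age, which goes against a lowered mRNA under the RNAi label. A count over the whole gene does not single out the stretch that a deletion removes, so it does not check the ok3033 allele. The level of *fat-7*, given further on, was higher in every sams1-labelled library than in every wild-type library, the direction known for animals with less *sams-1*. The study also names *vit-2*, as lower with loss of *sams-1*. Here *vit-2* was not called lower at either age. Its sams1 to wild-type difference was 0.20 at D1 (edgeR adjusted p = 0.747) and 1.17 at D7 (edgeR adjusted p = 0.0847). The value at D1 rested on sams1 D1 R1, with 8752 CPM of *vit-2* against 2568 and 1394 CPM in R3 and R5. Over the 6 vitellogenin (yolk) genes the median difference was -2.09 at D1 and 0.24 at D7. Groups are named by their labels throughout. The *sams-1* mRNA fell with age in both genotypes, by -3.13 (SE 0.30, edgeR adjusted p = 7.9e-05) on the log2 scale in wild-type and -2.15 (SE 0.28, edgeR adjusted p = 0.000913) in sams1-labelled libraries. The interaction of *sams-1* was 0.99 (SE 0.39) and did not pass (edgeR adjusted p = 0.195), although it passed with DESeq2 (adjusted p = 0.0399) and without sams1 D1 R1 (adjusted p = 0.0280).

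The libraries held between 3939023 and 7568388 expected counts. Transcripts of germ line, muscle, neurons, intestine and pharynx were measured in all of them. In a principal component analysis the first component took 61.9% of the variance and parted the genotypes. sams1 D1 R1 stood apart from its group. It lay at 90.8 on that component where the other sams1 D1 libraries lay at 177 and 183, and its closest library was wild-type D1 R5 (Pearson r = 0.891) rather than one of its own group (r = 0.853 and 0.885). wild-type D1 R5 lay at -23.6, and the other wild-type D1 libraries at -95.0 and -83.0. wild-type D1 R1 correlated most with wild-type D1 R3 (r = 0.965). Its correlation with wild-type D7 R5 (r = 0.954) was above that with wild-type D1 R5 (r = 0.920). The biological coefficient of variation was 0.442 in wild-type D1, 0.0880 in wild-type D7, 0.451 in sams1 D1 and 0.254 in sams1 D7. Without sams1 D1 R1 it was 0.214 in sams1 D1.

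Marker lists moved with the groups and with that library. The summed level of larval molting genes was 370.1, 5335 and 9784 CPM in sams1 D1, 768, 324 and 455 CPM in sams1 D7 and between 91.1 and 324 CPM in the 6 wild-type libraries. The summed level of oocyte and eggshell genes was 10901, 2662 and 1861 CPM in sams1 D1, 13120.3, 12839 and 16269 CPM in sams1 D7, 37181, 29549 and 21943 CPM in wild-type D1 and 37204, 37983 and 38216 CPM in wild-type D7. Thus sams1 D1 R3 and R5 had the most molting transcripts and the fewest oocyte transcripts, and sams1 D1 R1 lay nearer to sams1 D7 in both. RNA came from whole animals, so fewer cells of a type and less RNA per cell cannot be told apart. The part of these marker differences in the results that follow was not tested.

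**Figure D1:**
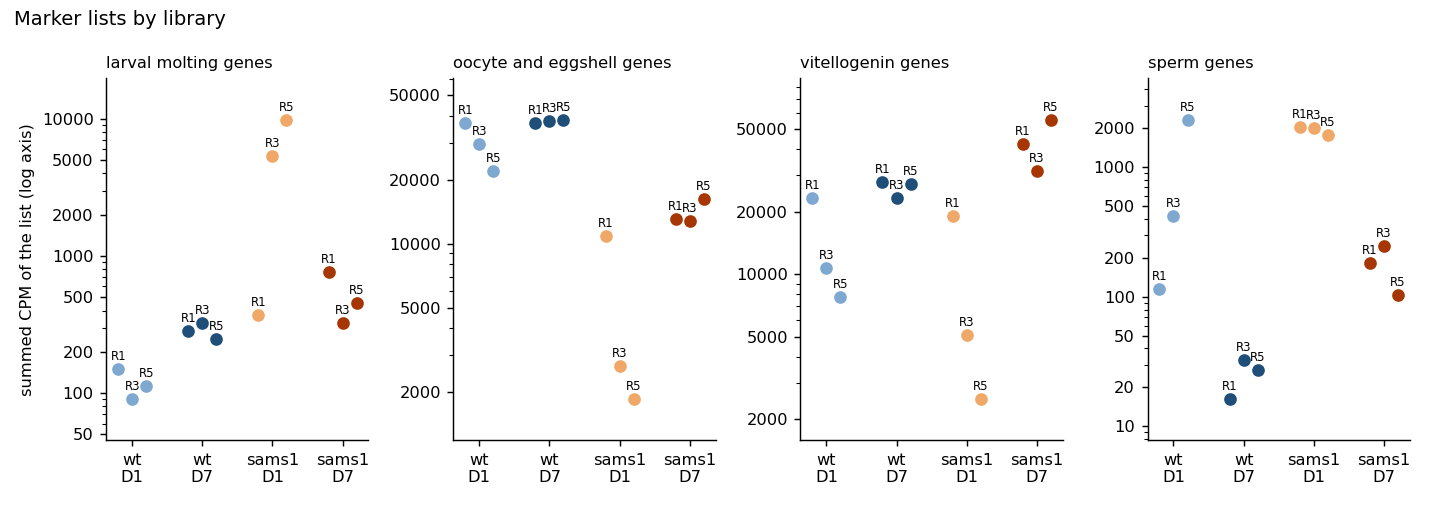
Summed CPM (log axis) of the genes of 4 marker lists in each of the 12 libraries, with R1, R3 and R5 marking the replicate. Molting genes stand at about 370 CPM or below in sams1 D1 R1 and all wild-type libraries and at 5335 and 9784 CPM in sams1 D1 R3 and R5, while oocyte and yolk genes are lowest in those same libraries.

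Of 14193 genes tested in all 12 libraries, 51 were higher in the interaction (0.359%) and 107 were lower (0.754%) at an edgeR adjusted p under 0.05. At an unadjusted p under 0.05 there were 2700 of the 14193 genes. The smallest absolute interaction among called genes was 1.04, so each differed by more than 2-fold in its course. DESeq2 called 635 higher and 431 lower of the 14193. The DESeq2 calls and unadjusted passes within gene lists, given further on, are to be read against these totals over all genes. The split into higher and lower calls moved with the scaling. It was 136 and 61 with library totals, 101 and 54 with the size factors of DESeq2, 60 and 64 with upper-quartile factors, 51 and 69 when scaled on body wall muscle genes, and 97 and 95 with no filter on low counts. The median interaction of all genes was -0.05 in the fit reported here and reached 0.32 when scaled on muscle genes. Of the 158 genes, 105 remained called in the same direction with the size factors of DESeq2, 107 with upper-quartile factors and slightly more with library totals, 86 with muscle scaling, 152 in DESeq2 and 109 in limma-trend. All 158 kept their sign under each of the 4 other scalings, in DESeq2 and in limma-trend, and in each fit without 1 library.

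The changes with age themselves were broader. In wild-type 1032 genes rose from D1 to D7 (7.27%) and 1145 fell (8.07%). In the libraries labelled sams1, 1514 rose (10.7%) and 2532 fell (17.8%). The age changes of wild-type and of sams1-labelled libraries share no library, and their Pearson correlation across the 14193 genes was 0.66, with genes not being independent replicates. Of the genes that fell in wild-type, 71.7% (821) fell in sams1-labelled libraries too and 14 rose. Of the genes that rose in wild-type, 40.1% (414) also rose and 15 fell. Of the genes that fell in sams1-labelled libraries 32.4% fell in wild-type too, and of those that rose 27.3% also rose. The wild-type risers had a median log2 change of 1.93 in wild-type and 0.75 in sams1-labelled libraries (a group that took no part in choosing them). The wild-type fallers had medians of -3.81 and -2.88. Genes chosen in sams1-labelled libraries also changed less in the other genotype. Their risers had medians of 1.18 in sams1-labelled libraries and 0.44 in wild-type, and their fallers -2.80 and -1.44. Genes chosen for a large change in a genotype tend to show a smaller change elsewhere. These medians therefore do not show that aging was weaker in either genotype. The direction of a change with age depends on the scaling, since scaling on body wall muscle genes moved the median of all genes from 0.11 to 1.36 in wild-type and from 0.02 to 1.62 in sams1-labelled libraries.

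**Figure D2:**
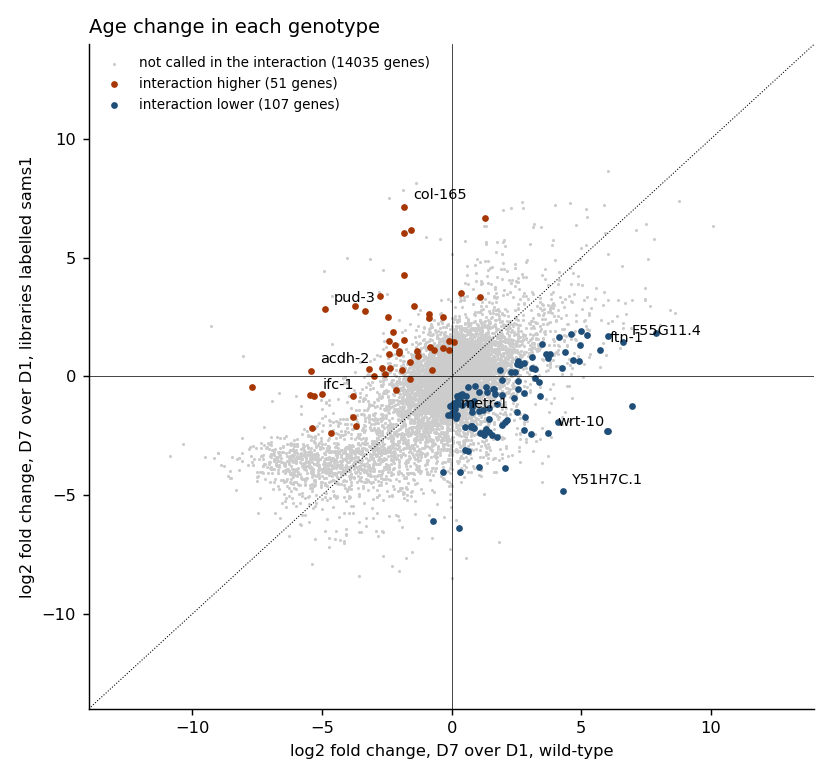
Each point is 1 of 14193 genes, with its log2 fold change from D1 to D7 in wild-type (x axis) and in libraries labelled sams1 (y axis). The 51 genes with a higher interaction lie above the dotted line of equal change and the 107 with a lower one below it.

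The called genes fell into a few courses. Of the 51 higher genes, 19 fell with age in wild-type with no call in sams1-labelled libraries, 15 rose in sams1-labelled libraries with no call in wild-type, 12 fell in wild-type and rose in sams1-labelled libraries, 4 fell in both and 1 rose in both. Of the 107 lower genes, 47 fell in sams1-labelled libraries only, 42 rose in wild-type only, 10 rose in both and 8 rose in wild-type and fell in sams1-labelled libraries. The interaction itself carries the test that these courses differ. At D1, 44.7% of all genes were higher and 28.7% lower in sams1-labelled libraries than in wild-type, and at D7 34.6% were higher and 26.1% lower. These comparisons use the same libraries as the interaction. Among the 107 lower genes, 54 were higher in sams1-labelled libraries at D1 and not called at D7, 31 were higher at both ages and 14 went from higher to lower. The absolute difference between the genotypes was larger at D1 than at D7 in 92 of the 107. Among the 51 higher genes it was larger at D1 in 22.

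A group of 4 neighbouring pud genes, named for proteins that are more abundant in *daf-2* mutants, had some of the largest positive interactions. They fell with age in wild-type and rose in sams1-labelled libraries. *pud-3* had 212, 163 and 42.3 CPM in wild-type D1 and 2.07, 4.17 and 7.71 CPM in wild-type D7. It had 1.13, 1.11 and 0.339 CPM in sams1 D1 and 4.94, 10.2 and 3.98 CPM in sams1 D7. Within wild-type every D1 library lay above every D7 library, within sams1-labelled libraries every D7 library lay above every D1 library, and the genotypes overlapped at D7 only. The interaction of *pud-3* was 7.73 (SE 0.98, edgeR adjusted p = 0.0104), from -4.90 in wild-type and 2.83 in sams1-labelled libraries.

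*pud-2.2* followed the same course. It had 644, 1033 and 253 CPM in wild-type D1, 46.8, 42.5 and 56.6 CPM in wild-type D7, 4.52, 34.5 and 7.11 CPM in sams1 D1 and 134, 170.0 and 51.1 CPM in sams1 D7, with an interaction of 6.68 (SE 1.03, edgeR adjusted p = 0.0197). The interaction was 6.14 (SE 0.96, edgeR adjusted p = 0.0207) for *pud-4* and 6.10 (SE 0.82, edgeR adjusted p = 0.0121) for *pud-1.2*. The 4 genes lie on chromosome V between 2322038 and 2329954 (WBcel235). *pud-1.2* and *pud-2.2* have near-identical copies, among which RSEM divides reads, so their counts are uncertain. The call of *pud-3* held in each of the 12 fits without 1 library, that of *pud-1.2* in 11 and those of *pud-2.2* and *pud-4* in 8. Without sams1 D1 R1 the interactions lay between 6.17 and 8.37, and the highest adjusted p of these genes with any library left out was 0.0788. The call of *pud-1.2* was lost without wild-type D7 R1, and those of *pud-2.2* and *pud-4* were lost without any wild-type D7 library or without sams1 D7 R3.

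The other genes that fell in wild-type and rose in sams1-labelled libraries included *txt-4*. It had 13.6, 35.0 and 17.96 CPM in wild-type D1 and 2.55, 3.50 and 6.24 CPM in wild-type D7, against 12.0, 30.1 and 28.1 and 58.3, 71.5 and 69.6 CPM in sams1-labelled libraries. The groups overlapped at D1, and at D7 every sams1-labelled library lay above every wild-type library. The interaction was 3.94 (SE 0.63, edgeR adjusted p = 0.0208), and it held in 9 of the 12 fits without 1 library, with an adjusted p of up to 0.0788 without wild-type D7 R1, wild-type D7 R3 or sams1 D7 R3.

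The most negative interaction belonged to Y51H7C.1, a gene with no role known to be stated here, which was singled out after its values were seen. It had 3.17, 0.973 and 2.79 CPM in wild-type D1 and 43.3, 42.7 and 51.0 CPM in wild-type D7. In sams1-labelled libraries it went the other way, from 119.9, 100.3 and 230.1 CPM at D1 to 2.47, 4.10 and 8.87 CPM at D7. The groups did not overlap at either age, with the order of the genotypes reversed between D1 and D7. The interaction was -9.13 (SE 0.72, edgeR adjusted p = 0.000285) and held in all 12 fits without 1 library (adjusted p up to 0.00617).

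Its neighbours on chromosome II, also singled out after their values were seen, were called too. Y51H7C.13 fell in sams1-labelled libraries, from 79.0, 348 and 804 CPM to 5.70, 7.35 and 1.99 CPM, and had 0.453, 1.95 and 3.79 and 2.87, 2.84 and 1.48 CPM in wild-type. Its interaction was -6.66 (SE 1.24, edgeR adjusted p = 0.0340) and held in 3 of the 12 fits. The pseudogene WBGene00044439 moved in the opposite direction. It had 115, 145 and 86.8 CPM in wild-type D1, 43.3, 32.5 and 50.4 in wild-type D7, 4.38, 3.33 and 1.35 in sams1 D1 and 20.7, 17.9 and 33.6 in sams1 D7. Its interaction of 4.43 (SE 0.53, edgeR adjusted p = 0.00669) held in all 12 fits. With WBGene00306078 these made 4 called genes between 1447291 and 1469630 (WBcel235), 2 higher and 2 lower. Across the genome, 14 of the 158 called genes lay within 10000 bases of another called gene, in 5 groups. Chromosome V held 29.7% of the called genes and 19.3% of the genes tested.

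**Figure D3:**
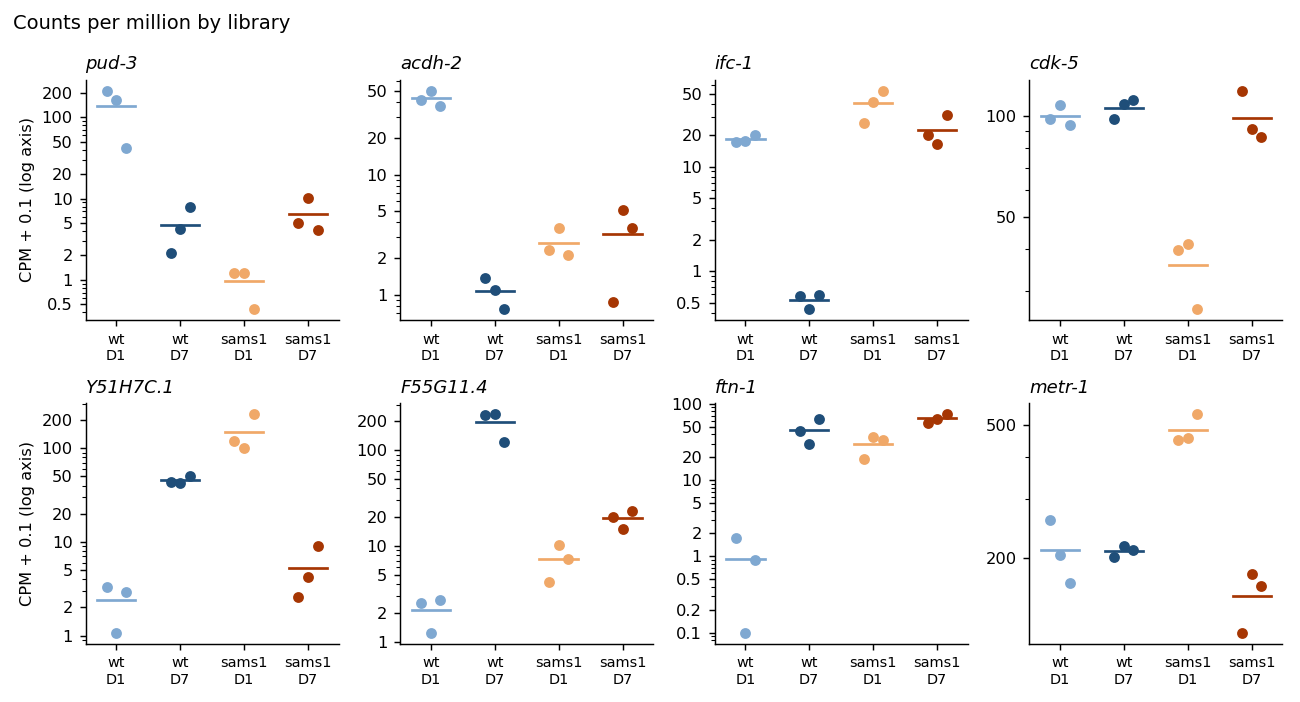
CPM plus 0.1 (log axis) of 8 genes in each library, with a line at the group mean (wt, wild-type; sams1, libraries labelled sams1). *pud-3* and Y51H7C.1 change in opposite directions in the 2 genotypes, *acdh-2* and *ifc-1* fall in wild-type, *cdk-5* rises from sams1 D1, F55G11.4 and *ftn-1* rise most in wild-type, and *metr-1* falls from sams1 D1.

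A set of genes fell with age in wild-type and fell less, or was not called, in sams1-labelled libraries. *ifc-1*, an intermediate filament protein of the intestine, had 17.0, 17.3 and 19.95 CPM in wild-type D1 and 0.478, 0.334 and 0.492 CPM in wild-type D7. It had 26.3, 41.4 and 53.2 CPM in sams1 D1 and 20.1, 16.2 and 31.0 CPM in sams1 D7. In wild-type it was below 1 CPM in each D7 library, and every sams1-labelled library at D7 lay far above them. The interaction was 4.47 (SE 0.53, edgeR adjusted p = 0.00669) and held in all 12 fits without 1 library.

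Acyl-CoA dehydrogenases of the acdh family act in the breakdown of short-chain and branched-chain acyl groups. *acdh-2* had 41.8, 49.9 and 37.3 CPM in wild-type D1 and 1.27, 1.00 and 0.656 CPM in wild-type D7, but 2.26, 3.51 and 2.03 CPM in sams1 D1 and 0.760, 4.97 and 3.52 CPM in sams1 D7. It was low already in the young sams1-labelled libraries. Its interaction was 5.67 (SE 0.74, edgeR adjusted p = 0.0121), and it held in all 12 fits. *acdh-1* is the first enzyme of the propionate shunt, a vitamin B12-independent route for propionate. It had 573, 579 and 576 CPM in wild-type D1 and 14.3, 25.5 and 28.2 CPM in wild-type D7. It had 2188, 2469 and 2256 CPM in sams1 D1 and 226, 647 and 445 CPM in sams1 D7. It fell in both genotypes, by -4.66 in wild-type and -2.39 in sams1-labelled libraries on the log2 scale, and its interaction was 2.27 (SE 0.48, edgeR adjusted p = 0.0479, held in 4 of 12 fits). Of 13 genes of the propionate shunt and the B12-dependent route, edgeR called *acdh-1* in the interaction (DESeq2 called 3 higher, and 3 higher and 2 lower passed at an unadjusted p under 0.05), and 6 fell in wild-type and 8 in sams1-labelled libraries.

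Small secreted defence proteins were in the same set. *spp-4*, a saposin-like protein, had 33.5, 47.7 and 23.7 CPM in wild-type D1, 4.14, 3.34 and 5.74 in wild-type D7, 18.4, 46.9 and 26.1 in sams1 D1 and 31.7, 38.7 and 22.9 in sams1 D7. Its interaction was 3.01 (SE 0.55, edgeR adjusted p = 0.0315). *spp-17*, of the same family, had 2.19 (SE 0.46, edgeR adjusted p = 0.0479). Both fell in wild-type only. Of 34 lysozyme and saposin-like genes tested these 2 were called higher and 0 lower (DESeq2 called 5 higher and 3 lower, and 6 higher and 7 lower passed at an unadjusted p under 0.05). In wild-type 14 of the 34 rose with age and 3 fell, and in sams1-labelled libraries 13 rose and 2 fell. *fipr-1*, a gene related to fungus-induced peptides and singled out after its values were seen, had an interaction of 4.66 (SE 1.01, edgeR adjusted p = 0.0494, held in 2 of 12 fits). It had 0, 0.334 and 0.164 CPM in wild-type D7 and 21.1, 14.7 and 19.6 CPM in sams1 D7.

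*ugt-47*, a UDP-glucuronosyltransferase of the kind that conjugates sugars to foreign compounds, fell in wild-type from 27.8, 30.3 and 21.1 CPM to 9.08, 7.84 and 9.03 CPM. It had 74.2, 97.2 and 84.0 and 89.6, 84.5 and 62.8 CPM in sams1-labelled libraries, with an interaction of 1.501 (SE 0.30, edgeR adjusted p = 0.0432). *rbm-5*, an RNA-binding protein, fell in wild-type from 258, 288 and 262 CPM to 146, 156 and 172 CPM and had 75.4, 96.1 and 83.5 and 100.3, 99.8 and 109.6 CPM in sams1-labelled libraries. Its interaction was 1.05 (SE 0.22, edgeR adjusted p = 0.0467), and the fall in wild-type turned to a rise when scaled on muscle genes. The collagen *col-135* fell in both genotypes, from 281, 394 and 394 to 6.37, 8.68 and 10.5 CPM in wild-type and from 113, 66.0 and 32.3 to 12.3, 18.6 and 15.7 CPM in sams1-labelled libraries. Its interaction was 3.21 (SE 0.54, edgeR adjusted p = 0.0246). *abhd-3.2*, of the alpha/beta hydrolase fold, also fell in both, with 2.12 (SE 0.33, edgeR adjusted p = 0.0197), as did *acdh-1*. *sdz-24*, singled out after its values were seen, fell in wild-type from 14.3, 31.9 and 24.3 CPM to 0, 1.17 and 0.985 CPM, with an interaction of 4.28 (SE 0.88, edgeR adjusted p = 0.0455). Of these genes *abhd-3.2* held in 9 of the 12 fits, *spp-4*, *ugt-47* and *rbm-5* in 7, *col-135* in 6, *spp-17* in 5 and *sdz-24* in 4, and the highest adjusted p was 0.142.

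Other genes rose in sams1-labelled libraries with no call in wild-type. *cdk-5*, a kinase best known in neurons, had 97.4, 108 and 93.4 CPM in wild-type D1 and 97.5, 108 and 111.3 CPM in wild-type D7. It had 39.7, 41.2 and 26.4 CPM in sams1 D1 and 118, 91.2 and 85.9 CPM in sams1 D7. The sams1 D1 libraries lay below all others, and the groups at D7 overlapped. The interaction was 1.38 (SE 0.28, edgeR adjusted p = 0.0455). *mdt-30*, a subunit of the Mediator complex of transcription, had 119.6, 154 and 128 and 126, 124 and 124 CPM in wild-type and went from 31.2, 29.7 and 27.6 to 60.2, 68.5 and 65.4 CPM in sams1-labelled libraries. Its interaction was 1.23 (SE 0.22, edgeR adjusted p = 0.0282). *vrp-1* had an interaction of 1.82 (SE 0.35, edgeR adjusted p = 0.0368). Both *cdk-5* and *mdt-30* overlap other genes, and without strand their reads cannot be told apart from those genes. These calls held in 5, 7 and 6 of the 12 fits for *cdk-5*, *mdt-30* and *vrp-1*, with an adjusted p of up to 0.138.

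The collagens *col-74* and *col-165* appeared at D7 in sams1-labelled libraries. *col-165* had 11.4, 8.43 and 35.5 CPM there, 0, 0 and 0.339 CPM in sams1 D1 and between 0 and 4.83 CPM in wild-type. *col-74* had 16.7, 9.72 and 41.1 CPM in sams1 D7 and between 0 and 4.68 CPM in all other libraries. Since the sams1 D1 libraries held few or 0 counts of both genes, their fitted interactions depend on the prior count. Both were called (edgeR adjusted p = 0.0368 and 0.0424), in 4 of the 12 fits for *col-74* and 3 for *col-165*. *col-74* overlaps *gtap-1*. Of 120 col genes tested, edgeR called 3 higher and 2 lower in the interaction (DESeq2 called 8 higher and 8 lower, and 9 higher and 17 lower passed at an unadjusted p under 0.05), while 50 fell in wild-type and 99 fell in sams1-labelled libraries. The list's summed level was 32352, 18595 and 38054 CPM in wild-type D1 and 81856, 91869 and 95135 CPM in sams1 D1.

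Among the lower interactions, 42 genes rose with age in wild-type and were not called in sams1-labelled libraries, and many of these had been high in sams1-labelled libraries from D1. *ftn-1*, a ferritin that stores iron, had 1.66, 0 and 0.798 CPM in wild-type D1 and 44.3, 29.2 and 63.3 CPM in wild-type D7. It had 18.7, 36.2 and 33.4 CPM in sams1 D1 and 56.2, 63.7 and 72.6 CPM in sams1 D7. The young wild-type libraries were the low ones, and the groups overlapped at D7. The interaction was -4.61 (SE 0.77, edgeR adjusted p = 0.0251). The cadmium-responsive *cdr-2* had 7.24, 2.27 and 5.59 and 40.0, 19.4 and 20.7 CPM in wild-type and 124, 271 and 202 and 105, 113 and 99.4 CPM in sams1-labelled libraries, with -3.31 (SE 0.56, edgeR adjusted p = 0.0255). *cdr-4*, its neighbour, had -1.71 (SE 0.36, edgeR adjusted p = 0.0484). Of 7 metallothionein and cadmium-responsive genes tested, edgeR called these 2 lower and 0 higher (DESeq2 called 2 lower and 0 higher, and 3 passed lower and 0 higher at an unadjusted p under 0.05).

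Lysosomal enzymes were among these genes. *hex-1*, a hexosaminidase, had 19.9, 7.78 and 18.6 and 82.7, 82.9 and 107 CPM in wild-type. It had 63.1, 38.1 and 43.3 and 27.9, 24.8 and 47.2 CPM in sams1-labelled libraries. The interaction was -3.09 (SE 0.50, edgeR adjusted p = 0.0215), and the order of the genotypes changed between the ages. *cpr-4*, a cathepsin B-like protease, rose in wild-type from 53.7, 29.8 and 43.9 to 254, 245 and 297 CPM and had 530.1, 1066 and 879.5 and 1129, 795 and 1509 CPM in sams1-labelled libraries, with -2.17 (SE 0.44, edgeR adjusted p = 0.0444). *lgmn-1*, a legumain protease singled out after its values were seen, had -2.86 (SE 0.56, edgeR adjusted p = 0.0424) and overlaps *cal-1*. Of 22 cathepsin and aspartyl protease genes, edgeR called *cpr-4*, lower (DESeq2 called 2 higher and 1 lower, and 2 higher and 6 lower passed at an unadjusted p under 0.05), and 11 rose in wild-type and 8 in sams1-labelled libraries. None of the 15 lysosomal lipase genes was called in the interaction by edgeR (DESeq2 called 3 lower, and 7 passed lower at an unadjusted p under 0.05). All 15 had a negative interaction, with a median of -2.12 where the median of all genes was -0.05.

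Enzymes of detoxification were called in both directions. *ugt-25* rose in wild-type from 3.47, 2.76 and 1.40 to 40.0, 20.2 and 23.1 CPM and had 14.99, 44.7 and 47.2 and 23.7, 20.3 and 16.51 CPM in sams1-labelled libraries, with an interaction of -4.24 (SE 0.65, edgeR adjusted p = 0.0197). It overlaps *mlst-8*. *ugt-66* rose in wild-type from 0, 0.486 and 1.60 to 5.41, 3.50 and 4.92 CPM and fell in sams1-labelled libraries from 24.2, 50.3 and 53.3 to 7.79, 11.0 and 7.95 CPM, with -5.06 (SE 0.88, edgeR adjusted p = 0.0282). Of 54 UDP-glucuronosyltransferase genes, edgeR called 2 higher and 2 lower (DESeq2 called 2 higher and 4 lower, and 3 higher and 12 lower passed at an unadjusted p under 0.05). The cytochrome P450 gene cyp-13A5 rose in both genotypes, by 4.61 in wild-type and 1.79 in sams1-labelled libraries, with -2.82 (SE 0.59, edgeR adjusted p = 0.0482). Of 61 cytochrome P450 genes edgeR called this 1 (DESeq2 called 1 higher and 8 lower, and 2 higher and 19 lower passed at an unadjusted p under 0.05). With sams1 D1 R1 left out, 6 were called higher and 12 lower, in a fit that called 20.3% of all genes higher and 5.29% lower. With age 21 rose in wild-type and 5 in sams1-labelled libraries. The list's median interaction was -1.26. Among 35 glutathione S-transferase genes, edgeR called *gst-39*, lower, with -2.03 (SE 0.43, edgeR adjusted p = 0.0494), while the list's median was 0.53. DESeq2 called 3 higher and 1 lower of that list, and 7 higher and 4 lower passed at an unadjusted p under 0.05.

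Other genes with the larger rise in wild-type were F55G11.4, which was chosen after its values were seen, and *abf-2*. F55G11.4 had 2.41, 1.13 and 2.59 CPM in wild-type D1 and 235, 237 and 123 CPM in wild-type D7. It had 4.10, 10.2 and 7.28 CPM in sams1 D1 and 20.1, 14.9 and 22.9 CPM in sams1 D7. It rose in both genotypes, yet the wild-type level at D7 lay above every sams1-labelled library. The interaction was -5.15 (SE 0.56, edgeR adjusted p = 0.00508) and held in all 12 fits. *abf-2*, an antibacterial peptide gene, had 0.302, 0.486 and 0.798 and 22.6, 13.7 and 24.1 CPM in wild-type and 3.68, 4.99 and 2.709 and 11.4, 9.07 and 17.3 CPM in sams1-labelled libraries, with -3.51 (SE 0.62, edgeR adjusted p = 0.0282). F15B9.6, also chosen after its values were seen, had 0.302, 0 and 0 and 45.4, 22.9 and 25.1 CPM in wild-type and 6.22, 12.4 and 15.1 and 39.7, 34.4 and 44.5 CPM in sams1-labelled libraries. Its interaction of -6.06 (SE 0.84, edgeR adjusted p = 0.0130) depends on the prior count, since wild-type D1 R3 and R5 held 0 counts. It lay between -8.69 and -5.31 with 1 library left out and was -2.29 in limma-trend on log2(TPM + 1). C17H12.8, chosen in the same way, had -3.30 (SE 0.45, edgeR adjusted p = 0.0121). *srlf-30* had -2.72 (SE 0.47, edgeR adjusted p = 0.0282). *ttr-34*, of the transthyretin-related family, rose in wild-type, with -2.71 (SE 0.49, edgeR adjusted p = 0.0300). It was the 1 called by edgeR of 48 genes of that family (DESeq2 called 3 lower, and 2 higher and 7 lower passed at an unadjusted p under 0.05, shares close to those over all genes). Of 170 nuclear hormone receptor genes edgeR called *nhr-11*, with -2.74 (SE 0.58, edgeR adjusted p = 0.0490), where 0.754% of all genes were called lower. DESeq2 called 4 higher and 4 lower of them, and 10 higher and 15 lower passed at an unadjusted p under 0.05. Both were smaller shares than over all genes. *tbb-6*, a beta-tubulin, rose in wild-type from 4.37, 0.973 and 0.798 to 13.7, 10.5 and 12.3 CPM and fell in sams1-labelled libraries from 179.8, 163 and 151 to 51.3, 46.7 and 77.8 CPM, with -3.998 (SE 0.60, edgeR adjusted p = 0.0197). That fall turned to a rise when scaled on muscle genes. F15B9.6 held in 11 of the 12 fits without 1 library, C17H12.8 in 10, *tbb-6* and *ugt-25* in 7, *ftn-1* and *hex-1* in 4, *abf-2*, *cdr-2*, *srlf-30*, *ttr-34* and *ugt-66* in 3, and *cdr-4*, *cpr-4*, cyp-13A5, *gst-39*, *lgmn-1* and *nhr-11* in 2. The highest adjusted p over those fits was 0.141 for *cdr-4*.

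The methionine and folate cycles pass methyl groups to SAM, the product of SAMS-1. Of 16 genes of the SAM and methionine cycle, edgeR called 3 lower in the interaction and 0 higher (DESeq2 called 1 higher and 4 lower, and 1 higher and 8 lower passed at an unadjusted p under 0.05). *metr-1*, the methionine synthase, had 259.8, 205 and 169 CPM in wild-type D1 and 201, 218 and 212 CPM in wild-type D7. It had 452, 457 and 537 CPM in sams1 D1 and 120.0, 179 and 165 CPM in sams1 D7. Wild-type libraries lay between 169 and 260 CPM over both ages, while every sams1-labelled library lay above wild-type at D1 and below it at D7. Its interaction was -1.63 (SE 0.29, edgeR adjusted p = 0.0286). *mthf-1*, the methylenetetrahydrofolate reductase that feeds it, had 188, 165 and 138 and 174, 155 and 184 CPM in wild-type and 309, 395 and 497 and 139, 132 and 155 CPM in sams1-labelled libraries, with -1.55 (SE 0.28, edgeR adjusted p = 0.0301). *mel-32*, a serine hydroxymethyltransferase, had -1.52 (SE 0.32, edgeR adjusted p = 0.0483). *adk-1*, the adenosine kinase that clears a product of SAM use, had 254, 191 and 239.8 and 199, 216 and 214 CPM in wild-type and 538, 656 and 592 and 192, 191 and 201 CPM in sams1-labelled libraries, with -1.49 (SE 0.23, edgeR adjusted p = 0.0207). All 4 genes fell in sams1-labelled libraries, where 11 of the 16 cycle genes fell, against 2 in wild-type. The falls of *metr-1*, *mthf-1* and *mel-32* turned to rises when scaled on muscle genes. The interactions of all 4 genes were negative under that scaling, and their calls were lost (edgeR adjusted p between 0.166 and 0.208). The hydrolase *ahcy-1* had -1.22 (edgeR adjusted p = 0.0625) and did not pass, and neither did *pmt-1* and *pmt-2*, the phosphoethanolamine methyltransferases, with -1.20 and -0.73. *adk-1* and *mthf-1* overlap other genes. The 4 calls held only without wild-type D1 R1 or without sams1 D1 R1, with an adjusted p of up to 0.150 in the other fits.

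Genes of fat synthesis were called in the same direction. *fat-6*, a delta-9 desaturase that makes oleate, rose in wild-type from 122, 93.7 and 78.2 to 282, 214 and 236 CPM. It had 705, 1157 and 894 and 872, 603 and 558 CPM in sams1-labelled libraries, with an interaction of -1.75 (SE 0.36, edgeR adjusted p = 0.0455). The genotypes were apart at both ages, by less at D7. *elo-1*, a fatty acid elongase, had 191, 181 and 181 and 213, 229 and 209 CPM in wild-type and 407, 487 and 459 and 237, 252 and 233 CPM in sams1-labelled libraries, with -1.14 (SE 0.21, edgeR adjusted p = 0.0334). These were the 2 called by edgeR of 21 desaturase, elongase and fatty acid synthesis genes, both lower (DESeq2 called 5 lower, and 9 passed lower at an unadjusted p under 0.05). *fasn-1*, the fatty acid synthase, had -2.48 (edgeR adjusted p = 0.0607) and *fat-5* had -1.69 (edgeR adjusted p = 0.0607). *fat-7* had 7.09, 12.3 and 19.4 and 14.01, 14.7 and 11.8 CPM in wild-type and 400.4, 338 and 134 and 116, 172 and 92.3 CPM in sams1-labelled libraries. It was higher in sams1-labelled libraries at both ages, and its interaction of -1.27 (SE 0.59, edgeR adjusted p = 0.262) did not pass. *fat-6* and *fat-7* are close paralogs, so reads can be shared between them. *ldp-1* had 225, 160.2 and 153 and 195, 202 and 206 CPM in wild-type and 448, 426 and 339.7 and 112, 126 and 124 CPM in sams1-labelled libraries, with -1.91 (SE 0.27, edgeR adjusted p = 0.0130), held in 7 of the 12 fits. *acl-12*, an acyltransferase-like gene, rose in wild-type, with -2.26 (SE 0.37, edgeR adjusted p = 0.0208). The calls of *fat-6* and *elo-1* held only without wild-type D1 R1 or without sams1 D1 R1. In the 10 other fits the adjusted p reached 0.171 for *elo-1*, and *acl-12* held in 4 of the 12. When scaled on muscle genes the fall of *elo-1* in sams1-labelled libraries turned to a rise, and the calls of *elo-1* and *fat-6* were lost (edgeR adjusted p = 0.359 and 0.158).

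Many nuclear genes of mitochondria fell with age in sams1-labelled libraries, and few were called in wild-type. Of 43 respiratory chain genes, 37 fell in sams1-labelled libraries and 0 rose, while in wild-type 1 rose and 2 fell. The summed level of the list was 11848, 8615 and 8335 CPM in wild-type D1, 9544, 9674 and 9978 in wild-type D7, 12296, 13116 and 14350.3 in sams1 D1 and 7373, 6972 and 7583 in sams1 D7. The sams1 D7 libraries were thus the lowest, and sams1 D1 libraries were not below wild-type. The interaction was negative for 40 of the 43 genes, with a median of -0.76 (-0.72 relative to all genes), but it was called for 2 (DESeq2 called 9, and 32 passed at an unadjusted p under 0.05). These were *nduf-11*, a subunit of complex I, with -1.12 (SE 0.24, edgeR adjusted p = 0.0494), and *sdhb-1*, the iron-sulfur subunit of succinate dehydrogenase, with -1.08 (SE 0.23, edgeR adjusted p = 0.0494). *sdhb-1* rose in wild-type and was not called with age in sams1-labelled libraries. It had 156, 118 and 111.3 and 188, 197 and 205 CPM in wild-type and 181, 165 and 177 and 125, 118 and 137 CPM in sams1-labelled libraries.

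The list of citric acid cycle genes had the same pattern, with 13 of 21 genes falling in sams1-labelled libraries. By edgeR 1 was called (DESeq2 called 3 lower, and 15 passed lower at an unadjusted p under 0.05). It was the isocitrate dehydrogenase *idh-1* (-1.40, SE 0.29, edgeR adjusted p = 0.0479), and whether its enzyme acts inside mitochondria was not tested. All 21 interactions were negative (median -0.78). *tufm-1* and *gfm-1*, elongation factors of the mitochondrial ribosome, and *dlat-1*, a subunit of pyruvate dehydrogenase, were called too and were singled out after their values were seen. *tufm-1* had 397, 263 and 242 and 392, 385 and 409 CPM in wild-type and 325, 382 and 416 and 158, 157 and 178 CPM in sams1-labelled libraries, with -1.58 (SE 0.29, edgeR adjusted p = 0.0301). The interaction was -1.38 (SE 0.30, edgeR adjusted p = 0.0494) for *gfm-1* and -1.24 (SE 0.27, edgeR adjusted p = 0.0494) for *dlat-1*, which overlaps F23B12.4. Of 66 mitochondrial ribosome genes 0 were called by edgeR, and their median was -0.27 (-0.23 relative to all genes). DESeq2 called 2 lower, where 431 of all 14193 genes were lower, a similar share. At an unadjusted p under 0.05, 13 passed lower and 0 higher, where 2700 of the 14193 passed in either direction. The median of the mitochondrial ribosome genes was 0.064 with library totals, 0.14 when scaled on muscle genes and 0.27 without sams1 D1 R1, where 2 were called higher (20.3% of all genes were). The median of all genes was 0.30, 0.32 and 0.40 in those fits, so the list stayed below it. Without R1 but with the factors of all 12 libraries kept, 7 were called lower and 0 higher, where 1223 of 14193 genes were lower. With age, 15 of the 66 fell in sams1-labelled libraries, where 17.8% of all genes fell, and 0 in wild-type, where 8.07% did. The mitochondrial genome's own genes, 12 of which were tested, had a median of 0.03 and 0 calls (0 by DESeq2, and 1 higher at an unadjusted p under 0.05). The calls of *nduf-11*, *sdhb-1*, *idh-1*, *tufm-1*, *gfm-1* and *dlat-1* held only without wild-type D1 R1 or without sams1 D1 R1, and the adjusted p reached 0.207 in the other fits. The median changes of respiratory chain and citric acid cycle genes in sams1-labelled libraries turned positive when scaled on muscle genes, as did those of *nduf-11*, *idh-1*, *tufm-1*, *gfm-1* and *dlat-1*, and those list medians stayed below the median of all genes. The calls of these genes and of *sdhb-1* were lost under that scaling (edgeR adjusted p between 0.160 and 0.340).

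Larval molting genes had the most negative median interaction of the lists tested. Of 24 larval molting genes, 21 fell with age in sams1-labelled libraries, and all 24 interactions were negative, with a median of -3.86. The warthog gene *wrt-10*, of the hedgehog-related family, was the 1 called (DESeq2 called 14, and 17 passed at an unadjusted p under 0.05). It had 2.72, 1.46 and 0.998 CPM in wild-type D1 and 18.8, 29.2 and 23.1 CPM in wild-type D7. It had 4.52, 141 and 218 CPM in sams1 D1 and 35.1, 16.6 and 17.1 CPM in sams1 D7. sams1 D1 R3 and R5 were the high libraries, and R1 lay just above the wild-type D1 libraries. The interaction was -6.14 (SE 1.32, edgeR adjusted p = 0.0494) and -6.28 without sams1 D1 R1 (adjusted p = 0.000114).

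These calls moved with sams1 D1 R1. The interaction of *mlt-11*, a protease inhibitor of molting, was -5.54 (edgeR adjusted p = 0.0598) with all libraries and -5.68 (adjusted p = 0.000184) without R1. Without R1, 20 of the 24 molting genes were called lower, in a fit that called 5.29% of all genes lower and 20.3% higher. Of 28 hedgehog-related genes edgeR called 1, lower, which was *wrt-10* again. DESeq2 called 1 higher and 6 lower of them, and 1 higher and 10 lower passed at an unadjusted p under 0.05. Without R1 edgeR called 12 lower and 2 higher. The matrix genes *col-38*, a collagen, *let-653*, a mucin-like apical matrix protein, *sym-1*, a secreted leucine-rich repeat protein and *osm-7*, a secreted co-ligand of Notch, were singled out after their values were seen. *col-38* had 113, 1479.7 and 2612 CPM in sams1 D1, 21.8, 25.9 and 13.6 CPM in sams1 D7 and between 4.67 and 18.6 CPM in wild-type, with -5.37 (SE 1.16, edgeR adjusted p = 0.0495). The interactions were -5.49 (SE 1.19, edgeR adjusted p = 0.0494) for *sym-1*, -3.98 (SE 0.86, edgeR adjusted p = 0.0494) for *let-653* and -3.25 (SE 0.58, edgeR adjusted p = 0.0286) for *osm-7*. These 3 rose with age in wild-type and fell in sams1-labelled libraries, and *sym-1* overlaps C44H4.4. The calls of *wrt-10*, *col-38*, *sym-1*, *let-653* and *osm-7* held only without wild-type D1 R1 or sams1 D1 R1, with adjusted p of up to 0.143 in the other fits.

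Of the lists of reproduction, edgeR called 0 yolk and oocyte genes and 1 sperm gene with all libraries. All 6 vitellogenin genes, which encode yolk proteins, had a positive interaction, with a median of 2.04. By edgeR 0 were called with all libraries (DESeq2 called 2 higher, and 3 passed at an unadjusted p under 0.05). All 6 were called higher without sams1 D1 R1, in a fit that called 20.3% of all genes higher. *vit-2* had 5852, 2996 and 2222 CPM in wild-type D1 and 7595, 6846 and 7889 CPM in wild-type D7. It had 8752, 2568 and 1394 CPM in sams1 D1 and 16134, 13017 and 21099.8 CPM in sams1 D7. The level at sams1 D7 was above every other library, and sams1 D1 R1 stood above the other sams1 D1 libraries. The interaction of *vit-2* was 0.97 (SE 0.78, edgeR adjusted p = 0.514), and 2.48 without R1 (adjusted p = 0.00391). Near-identical vitellogenin copies share reads.

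Of 29 oocyte and eggshell genes, 28 had a positive interaction, with a median of 1.11, and 0 were called by edgeR with all libraries (DESeq2 called 3 higher, and 6 passed at an unadjusted p under 0.05). Without sams1 D1 R1, 28 were called higher, against 20.3% of all genes. In a fit without R1 that kept the scaling factors and genes of all 12 libraries, chosen after the data were seen, 27 were called higher. That fit called 1235 of 14193 genes higher. In wild-type 0 of the 29 changed with age, and in sams1-labelled libraries 10 rose. *pie-1*, a regulator of the germ cell fate, had 1.56 (edgeR adjusted p = 0.0681) with all libraries and 2.49 (adjusted p = 0.000116) without R1. The 29 genes of DNA replication and mitosis had 0 calls with all libraries (DESeq2 called 1 higher, and 2 passed higher at an unadjusted p under 0.05). Without R1, 25 were called higher, against 20.3% of all genes. With the factors of all 12 libraries kept 15 were, against 1235 of 14193 genes.

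Sperm genes fell in both genotypes. Their summed level was 115, 419.7 and 2314 CPM in wild-type D1, 16.4, 32.5 and 27.2 in wild-type D7, 2038, 2002 and 1766 in sams1 D1 and 182, 246 and 104 in sams1 D7. wild-type D1 R5 was as high as the sams1 D1 libraries and the other wild-type D1 libraries were lower. Of 42 genes tested, 35 fell in wild-type and 39 in sams1-labelled libraries, and the median interaction was 2.61. Left-out libraries moved that median, relative to all genes, between 0.58 and 3.26. By edgeR 1 was called, with DESeq2 8 higher and 1 lower, and 9 higher and 2 lower passed at an unadjusted p under 0.05. The gene called by edgeR was *fer-1*, a ferlin needed for sperm maturation, and its interaction was negative (-4.35, SE 0.70, edgeR adjusted p = 0.0208). *fer-1* had 2.11, 1.297 and 4.99 and 3.50, 2.67 and 4.27 CPM in wild-type and 12.7, 22.5 and 27.9 and 1.33, 1.296 and 1.22 CPM in sams1-labelled libraries. Its call held in 4 of the 12 fits without 1 library (adjusted p up to 0.0788).

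**Figure D4:**
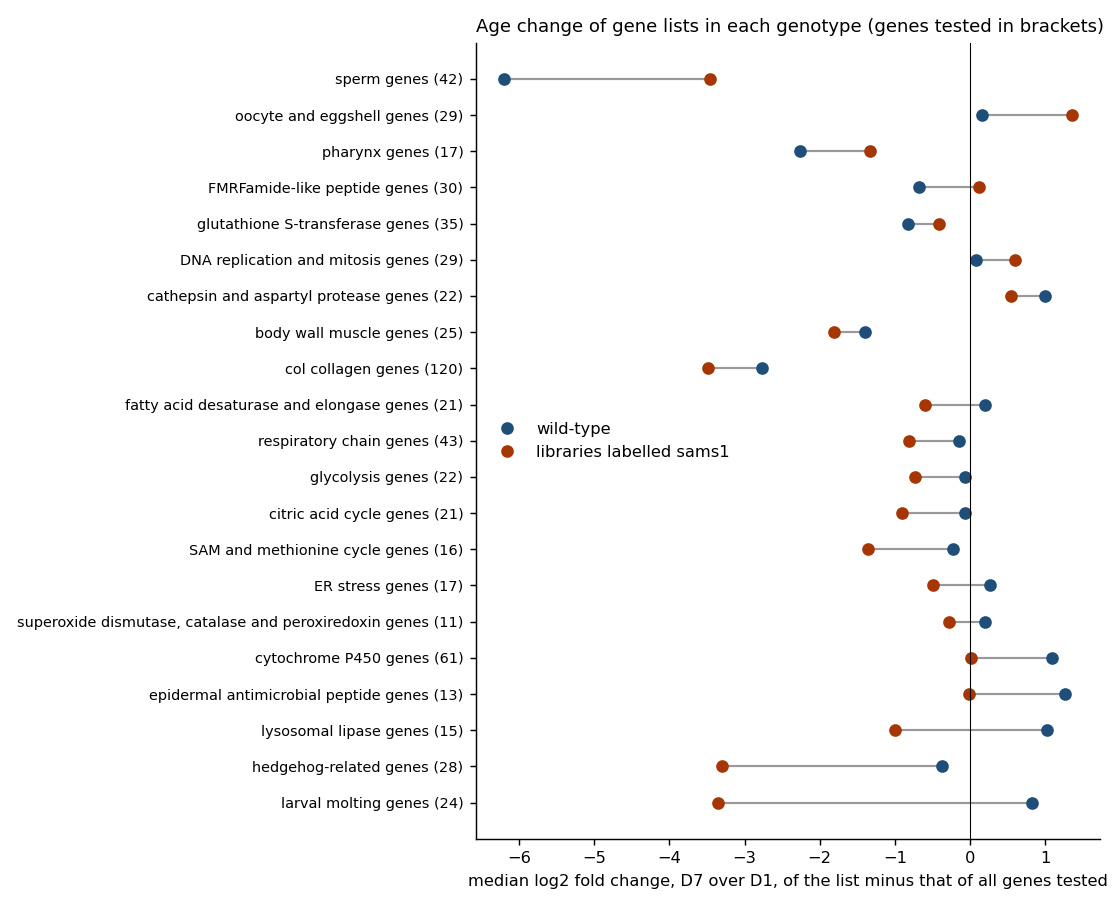
Median log2 fold change from D1 to D7 of each gene list minus the median of all genes tested, in wild-type and in libraries labelled sams1, for the 21 lists with at least 10 genes tested whose median interaction lay at least 0.4 from that of all genes. Larval molting genes stand at 0.82 in wild-type and -3.35 in sams1-labelled libraries, and oocyte and eggshell genes at 0.16 and 1.36.

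Further lists had medians on both sides of 0. Respiratory, glycolytic and citric acid cycle genes lay side by side, with median interactions of -0.76, -0.77 and -0.78, and 0 of 22 glycolysis genes were called by edgeR (DESeq2 called 3 lower, and 8 passed lower at an unadjusted p under 0.05). Of 17 ER stress genes 0 were called (DESeq2 called 1 lower, and 10 passed lower at an unadjusted p under 0.05), with a median of -0.88. The 11 superoxide dismutase, catalase and peroxiredoxin genes had a median of -1.05 and 0 calls (DESeq2 called 1, and 7 passed lower at an unadjusted p under 0.05), and 4 of them rose in wild-type while 3 fell in sams1-labelled libraries. The median of 25 body wall muscle genes was -0.53 and that of 17 pharynx genes 0.93. FMRFamide-like neuropeptide genes had a median of 0.62 over 30 genes, 26 of them positive, with 0 called by edgeR (DESeq2 called 3 higher, and 7 passed higher at an unadjusted p under 0.05). Medians near that of all genes were found for 25 autophagy genes (0.02), 33 proteasome genes (-0.10, positive with 3 of the 4 other scalings), 25 neuron genes (0.07) and 100 F-box A genes (0.05). *mlc-7*, a myosin light chain, was called outside the muscle list, with -1.82 (SE 0.32, edgeR adjusted p = 0.0282), as was *anp-1* with -2.63 (SE 0.54, edgeR adjusted p = 0.0455). *mlc-7* held in 2 of the 12 fits and *anp-1* in 3, with an adjusted p of up to 0.133, and the fall of *mlc-7* in sams1-labelled libraries turned to a rise when scaled on muscle genes.

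With all 12 libraries, none of the other genes that the study follows passed the edgeR test of the interaction as fitted here, while DESeq2 called *hsp-6* (adjusted p = 0.0032), *hsp-60* (0.0120) and *sqst-1* (0.00833). edgeR also called *hsp-6* with library totals (adjusted p = 0.0437) and with the 5 CPM filter, as did limma-trend (adjusted p = 0.0427). The mitochondrial chaperones *hsp-6* and *hsp-60* had -1.56 (SE 0.34, edgeR adjusted p = 0.0530) and -1.12 (SE 0.27, edgeR adjusted p = 0.0635). *hsp-60* had 713, 527 and 469 and 516, 452 and 613 CPM in wild-type and 369, 381 and 357 and 149, 160.1 and 163 CPM in sams1-labelled libraries, so that the sams1 D7 libraries were lowest. The autophagy receptor *sqst-1* had 33.0, 13.9 and 16.8 and 139, 119 and 129 CPM in wild-type and 163, 269 and 336 and 366, 298 and 498 CPM in sams1-labelled libraries, with -2.0001 (SE 0.47, edgeR adjusted p = 0.0598). Without sams1 D1 R1 the edgeR test passed with a negative interaction for *sqst-1* (-1.81, adjusted p = 0.00707), *hsp-6* (-1.16, adjusted p = 0.0165), *hsp-60* (-0.69, adjusted p = 0.0451) and *fos-1* (-1.49, adjusted p = 0.0327). In that fit it also passed for Y111B2A.2, with a positive interaction (1.24, edgeR adjusted p = 0.00161). *tomm-20*, an import receptor of mitochondria, had -0.79 (SE 0.28, edgeR adjusted p = 0.152). The interaction was -0.07 (SE 0.38) for *mrpl-18*, 0.25 (SE 0.40) for Y111B2A.2 and -0.32 (SE 0.32) for *tin-13*. The actin *act-1* had -1.89 (SE 0.60, edgeR adjusted p = 0.119) and *ama-1*, of RNA polymerase II, had -0.75 (SE 0.35, edgeR adjusted p = 0.271). For transcription factors the interaction was -1.65 (SE 0.53) for *fos-1*, -0.77 (SE 0.41) for *jun-1*, -0.56 (SE 0.39) for *hlh-30*, 0.73 (SE 0.54) for *pha-4* and -0.10 (SE 0.47) for *daf-12*.

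The number of calls turned on single libraries. Without sams1 D1 R1, 2989 genes were called higher (20.3%) and 780 lower (5.29%). That fit chose other scaling factors, with a median interaction of 0.40 over all genes. With the factors and genes of all 12 libraries kept, leaving out R1 gave 1235 higher and 1223 lower. Without wild-type D1 R1, 153 were higher and 540 lower. Leaving out any of the 10 other libraries gave between 7 and 99 calls, the fewest without wild-type D7 R1. The 158 genes were called in the same direction in the fits without sams1 D1 R1 and without wild-type D1 R1, and between 7 and 67 of them held in each of the other 10 fits. For 86 genes the call held in those 2 fits alone. It held in all 12 fits for 6 genes, Y51H7C.1, F55G11.4, WBGene00044439, *ifc-1*, *acdh-2* and *pud-3*. Without both sams1 D1 R1 and sams1 D7 R3, 1013 were higher and 984 lower, and all 158 genes held.

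**Figure D5:**
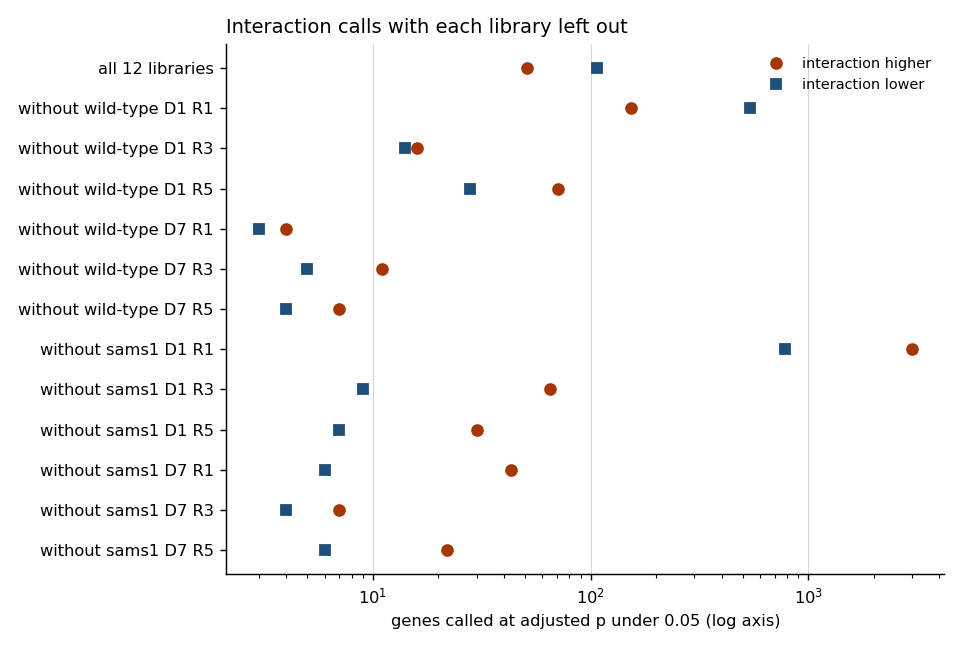
Number of genes called higher and lower in the interaction (log axis, edgeR adjusted p under 0.05) with all 12 libraries and with each library left out. The count goes from 3 lower and 4 higher without wild-type D7 R1 to 780 lower and 2989 higher without sams1 D1 R1.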

How the data were processed

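RNA from whole animals was sequenced in 12 libraries, 3 for each genotype and age. The authors used Trimmomatic 0.39 for trimming, STAR for alignment (version 2.710b as the submitters' notes write it) and RSEM 1.3.3 for quantification, on ws245 annotation. For the use of strand in counting, the sources used here give nothing. The deposited files hold RSEM expected counts and TPM per gene for each library, with no pooling. Expected counts (up to 2.41% of values not whole) were rounded. The deposited TPM values, scaled by RSEM for length and depth, entered 1 alternative. The DESeq2 1.38 named in the notes was the submitters' own.

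Of 46925 genes, 46917 were found in the Ensembl 115 annotation of WBcel235, from which symbols, positions and overlaps were taken. No row lacked a gene. Library totals lay between 3939023 and 7568388 counts, and counting intervals would cover counting error only. Counts were filtered with filterByExpr, leaving 14193 genes, scaled by TMM and fitted with edgeR 4.0.16 (R 4.3.3) by quasi-likelihood on 4 group means with 8 residual degrees of freedom. The interaction and both age changes were contrasts of that fit. P-values were two-sided and adjusted by Benjamini-Hochberg over all genes, with a threshold of 0.05. The SE of a log2 change was its size over the square root of F. CPM values are TMM-scaled. The scripts were tested on simulated counts.

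Named genes were the 12 most positive and 12 most negative interactions among called genes with 1 sign under every scaling, preferring calls that held with each library left out, and the 5 of lowest p per course with age, both among genes with at least 10 CPM in a group mean and a 3 or 4 letter symbol, up to 3 called members per list, and the genes the study follows, with no limit on level. Others were chosen after their values were seen, as stated beside them. The 46 gene lists, 6 of whose symbols had no match, and the test were chosen with earlier results of these data known. P-values measure the spread between these samples, which may be partly technical. Alternatives were other scalings (size factors of DESeq2, upper quartile, library totals, body wall muscle genes), filters (none, or 5 CPM in 3 libraries), DESeq2 1.42.0, limma-trend 3.58.1 on log2(TPM + 1), an adjusted p under 0.01 alone or with a 2-fold change, a replicate block and each library left out.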

Additional observations from a re-analysis of the deposited data

Results flagged for a closer look

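A gene stands here because the test of the difference between its change with age in sams1-labelled libraries and in wild-type passed at an edgeR adjusted p under 0.05. This holds for 64 of the 81 genes named, and the values are interactions on the log2 scale. Groups of 3 libraries were too small for a search for single outlying libraries. Beside these results, sams1 D1 R1 and wild-type D1 R5 stood apart from their groups on the first principal component. wild-type D1 R1 correlated more with wild-type D7 R5 than with wild-type D1 R5. The *sams-1* mRNA was not lower in the libraries labelled sams1.

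The interaction was 7.73 for *pud-3*, 6.68 for *pud-2.2*, 6.14 for *pud-4*, 6.10 for *pud-1.2*, 4.43 for WBGene00044439 and 3.94 for *txt-4*, for genes that fell with age in wild-type and rose in sams1-labelled libraries. Named genes that fell in wild-type and were not called with age in sams1-labelled libraries had interactions of 5.67 for *acdh-2*, 4.66 for *fipr-1*, 4.47 for *ifc-1*, 4.28 for *sdz-24*, 3.01 for *spp-4* and 2.19 for *spp-17*. It was further 1.501 for *ugt-47* and 1.05 for *rbm-5*. Named genes that fell in both genotypes, less so in sams1-labelled libraries had interactions of 3.21 for *col-135*, 2.27 for *acdh-1* and 2.12 for *abhd-3.2*. The interaction was 8.98 for *col-165*, 7.85 for *col-74*, 1.82 for *vrp-1*, 1.38 for *cdk-5* and 1.23 for *mdt-30*, for genes that rose in sams1-labelled libraries and were not called with age in wild-type. Named genes that rose in wild-type and fell in sams1-labelled libraries had interactions of -9.13 for Y51H7C.1, -5.49 for *sym-1*, -5.06 for *ugt-66*, -3.998 for *tbb-6*, -3.98 for *let-653* and -3.25 for *osm-7*. The interaction was -6.14 for *wrt-10*, -4.61 for *ftn-1*, -4.24 for *ugt-25*, -3.31 for *cdr-2*, -3.30 for C17H12.8 and -3.09 for *hex-1*, for genes that rose in wild-type and were not called with age in sams1-labelled libraries. It was further -2.86 for *lgmn-1*, -2.74 for *nhr-11*, -2.71 for *ttr-34*, -2.26 for *acl-12*, -2.17 for *cpr-4* and -2.03 for *gst-39*. In the same course it was -1.75 for *fat-6*, -1.71 for *cdr-4* and -1.08 for *sdhb-1*. Named genes that rose in both genotypes, more so in wild-type had interactions of -6.06 for F15B9.6, -5.15 for F55G11.4, -3.51 for *abf-2*, -2.82 for cyp-13A5 and -2.72 for *srlf-30*. The interaction was -6.66 for Y51H7C.13, -5.37 for *col-38*, -4.35 for *fer-1*, -2.63 for *anp-1*, -1.91 for *ldp-1* and -1.82 for *mlc-7*, for genes that fell in sams1-labelled libraries and were not called with age in wild-type. It was further -1.63 for *metr-1*, -1.58 for *tufm-1*, -1.55 for *mthf-1*, -1.52 for *mel-32*, -1.49 for *adk-1* and -1.40 for *idh-1*. In the same course it was -1.38 for *gfm-1*, -1.24 for *dlat-1*, -1.14 for *elo-1* and -1.12 for *nduf-11*.

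The fitted values of *col-74* and *col-165* depend on the prior count, since 1 or more sams1 D1 libraries held 0 counts of them, as does that of F15B9.6, with 0 counts in wild-type D1 R3 and R5. Other named genes had 0 counts in a library too. Among them were *ftn-1* in wild-type D1 R3, *ugt-66* in wild-type D1 R1, and *fipr-1* and *sdz-24* in wild-type D7 R1. Of these 64 calls, 6 held with each of the 12 libraries left out in turn.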

How the results depend on the processing

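The sign of all 158 called interactions was kept under every alternative in which they were tested, while their number was not. Of the 158, 86 remained called in the same direction with muscle scaling, 105 with the size factors of DESeq2, 107 with upper-quartile factors, slightly more with library totals, 109 with limma-trend, 130 with no filter, 150 with the 5 CPM filter and 152 with DESeq2. The total of 158 became 1066 with DESeq2, 285 with limma-trend on log2(TPM + 1), 4 at an adjusted p under 0.01 and 4 when a 2-fold change was also asked for. It was 1997 without sams1 D1 R1 and sams1 D7 R3, and 2458 without sams1 D1 R1 under the factors of all 12 libraries, an alternative chosen after seeing the data. With each library left out in turn it lay between 7 and 3769. The 51 higher calls became 635 with DESeq2, 136 with library totals, 179 with limma-trend, 97 with no filter, 101 with the size factors of DESeq2, 1013 without both libraries, 1235 without sams1 D1 R1 under unchanged factors and 2 at either stricter threshold, and lay between 4 and 2989 with 1 library left out. The 107 lower calls became 431 with DESeq2, 61 with library totals, 69 with muscle scaling, 54 with the size factors of DESeq2, 64 with upper-quartile factors, 984 without both libraries, 1223 without sams1 D1 R1 under unchanged factors and 2 at either stricter threshold, and lay between 3 and 780 with 1 library left out. The 5 CPM filter gave 209 calls in all. The 2177 calls with age in wild-type became 9692 with muscle scaling, 834 at an adjusted p under 0.01 and 822 with a 2-fold change added, and lay between 989 and 2982 with 1 library left out. The 4046 calls in sams1-labelled libraries became 10460 with muscle scaling, 6208 without sams1 D1 R1 under unchanged factors, 1367 and 1238 at the stricter thresholds, and lay between 2212 and 7110. The cause was not tested.

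With the replicate number as a block there were 57 calls of the interaction, 24 higher and 33 lower, 55 of them among the 158. The numbers did not pair the libraries, as deviations of same-numbered libraries correlated at -0.33 to 0.20, over 0.1 in 4 of 18 pairs, and 0 of 12 libraries correlated best with their own number.

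Among named genes with no call the sign of 4 interactions near 0 changed. *mrpl-18* went to 0.18 with DESeq2 and its size factors, 0.25 with library totals, 0.21 with limma-trend, 0.37 with muscle scaling, 0.16 with no filter, 0.033 with upper-quartile factors, 0.10 without both libraries and 0.26 without sams1 D1 R1 under unchanged factors. *daf-12* went to 0.22 with DESeq2 and its size factors, 0.31 with library totals, 0.55 with limma-trend, 0.14 with muscle scaling, 0.15 with no filter and 0.020 with upper-quartile factors. *tin-13* went to 0.043 with library totals and 0.11 with muscle scaling. With 1 library left out the values ran from -0.26 to 0.68 for *mrpl-18*, -0.62 to 0.20 for *tin-13*, -0.17 to 0.62 for *daf-12* and -0.81 to 0.12 for *hlh-30*. With 3 libraries a group and a biological coefficient of variation of 0.442 in wild-type D1 and 0.451 in sams1 D1, the spread at D1 limits the precision of the interaction.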

Other observations

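Further lists held few or 0 calls of the interaction by edgeR. Of 13 epidermal antimicrobial peptide genes, which answer infection and wounding of the skin, 6 rose with age in wild-type and 2 in sams1-labelled libraries. Their median interaction was -2.09, with 0 called (DESeq2 called 1 higher and 3 lower, and 1 passed higher and 6 lower at an unadjusted p under 0.05). Without sams1 D1 R1, 6 were called lower and 0 higher, in a fit that called 5.29% of all genes lower and 20.3% higher. C-type lectin genes, a large family of secreted defence proteins, changed with age in both genotypes. Of 96, 20 rose and 11 fell in wild-type, 18 rose and 11 fell in sams1-labelled libraries, and 0 were called in the interaction (DESeq2 called 4 and 4, and 8 and 10 passed at an unadjusted p under 0.05). Their median was 0.17. The shares of DESeq2 calls and of unadjusted passes among them were close to those over all genes. Of 17 dod and irg genes, 6 rose in wild-type and 7 in sams1-labelled libraries, with a median interaction of -0.28.

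Housekeeping and germ line lists were tested too. The median interaction was -0.33 for 77 cytoplasmic ribosomal protein genes. Of these 19 fell in sams1-labelled libraries, where 17.8% of all genes fell, and 1 in wild-type, where 8.07% did. The median interaction of further lists follows. It was -0.33 for 32 aminoacyl-tRNA synthetase genes, -0.39 for 16 mitochondrial chaperone and protease genes and -0.10 for 19 cytosolic heat shock genes. For 33 germ line and meiosis genes it was 0.10, and without sams1 D1 R1 21 were called higher, in a fit that called 20.3% of all genes higher. It was -0.23 for 15 phosphatidylcholine synthesis genes, 0.21 for 19 insulin-like peptide genes, -0.23 for 17 intestine genes and -0.02 for 5 zygotic embryo genes. Under library totals the medians of ribosomal protein, synthetase, cytosolic heat shock, phosphatidylcholine synthesis, intestine, zygotic embryo, and dod and irg genes turned positive, as did those of the same lists apart from ribosomal protein genes when scaled on muscle genes. The median of all genes was itself 0.30 under library totals and 0.32 under muscle scaling, and each of these list medians lay below it. No coelomocyte gene of the list passed the filter on low counts.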
